A study of Mus musculus with 12 samples.

Results

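The 10 genes described here are the glucocorticoid receptor Nr3c1, the activating enzyme Hsd11b1 and 8 genes known to be induced by the receptor, namely Tsc22d3, Fkbp5, Zbtb16, Sgk1, Dusp1, Klf9, Mt1 and Mt2. They were taken by symbol from a count table of 14398 genes, and all 10 were present and passed the filter on low counts, which kept 14266 genes. They were measured in messenger RNA of adipocyte precursors, stromal cells from which fat cells form, from male C57Bl6/J mice of 6 to 8 weeks. The 4 groups of 3 libraries were VWAT_HFD and VWAT_SD (perigonadal, visceral fat) and SWAT_HFD and SWAT_SD (inguinal, subcutaneous fat). HFD mice ate a diet of 60% lard for 3 days, and SD mice stayed on standard chow and are labelled day 0, so that a difference in collection day cannot be told apart from diet. Each library was a pool from 3 mice, sorted as CD45- CD31- CD29+ CD34+ Sca1+ with or without CD24, and a p-value here measures the spread between such pools. In bulk RNA, fewer cells of a type and less RNA per cell cannot be told apart.

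Glucocorticoids enter cells freely, and the amount that reaches the receptor is set locally. Hsd11b1 regenerates active hormone from its inert form inside the cell, using NADPH made by H6pd, while Hsd11b2 inactivates it. Without hormone the receptor is held in the cytoplasm by Hsp90 chaperones. With hormone it moves to the nucleus, binds response elements, raises genes such as Fkbp5 and Tsc22d3 and lowers many inflammatory genes. In adipocyte precursors glucocorticoids are a classical component of the differentiation cocktail.

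Gene counts per library ranged between 17.6 M and 56.1 M (M, 1e6). Values are CPM, counts per 1e6 gene counts with library sizes scaled by TMM, the trimmed mean of M values, and "rose", "fell" and "passed" mean an adjusted p under 0.05 in edgeR's quasi-likelihood F test over all genes. Pdgfra, a defining precursor marker, was at 657 to 1070 CPM in the 12 libraries, while the adipocyte marker Adipoq was at most 0.657 CPM and the leukocyte marker Ptprc at most 6.93 CPM, in SWAT_HFD replicate 2. Of the 15 leukocyte markers, all were in the table, and their summed level was 11.7 to 18.4 CPM in VWAT_HFD, 17.9 to 32.1 CPM in VWAT_SD, 17.5 to 99.6 CPM in SWAT_HFD and 19.1 to 20.6 CPM in SWAT_SD. VWAT_HFD replicate 3 stood apart: on the second principal component (15.8% of the variance) it scored 2.05, where VWAT_HFD replicates 1 and 2 scored -37 and -46 and the VWAT_SD libraries 24.4 to 32.3. Results that rest on it or on SWAT_HFD replicate 2 are given with and without them.

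Most of the 10 genes did not pass by diet. In VWAT, 2 of 10 fell on HFD, Klf9 and Dusp1, and none rose, where 15.6% of all genes tested passed (6.98% lower, 8.64% higher). In SWAT, none of the 10 passed, where 1.11% of all genes did; none of the 10 had an unadjusted p under 0.05 there, and none was called by DESeq2 or limma voom. Without VWAT_HFD replicate 3, Hsd11b1 also fell in VWAT, which made 3 of 10 where 29.8% of all genes passed, and without SWAT_HFD replicate 2 none of the 10 passed there, where 13.7% did. Between depots, 3 of the 10 passed on SD and 4 on HFD, where 25.7% and 26.8% of all genes did. Sgk1 was higher in VWAT on both diets, Mt1 and Mt2 were lower on both, and Dusp1 was lower on HFD. The median log2 change of the 10 was -0.04 for diet in VWAT and -0.05 in SWAT, beside -0.017 and -0.001 over all genes. It was -0.13 for VWAT against SWAT on SD and -0.05 on HFD, beside 0.018 and 0.017 over all genes.

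**Figure D1:**
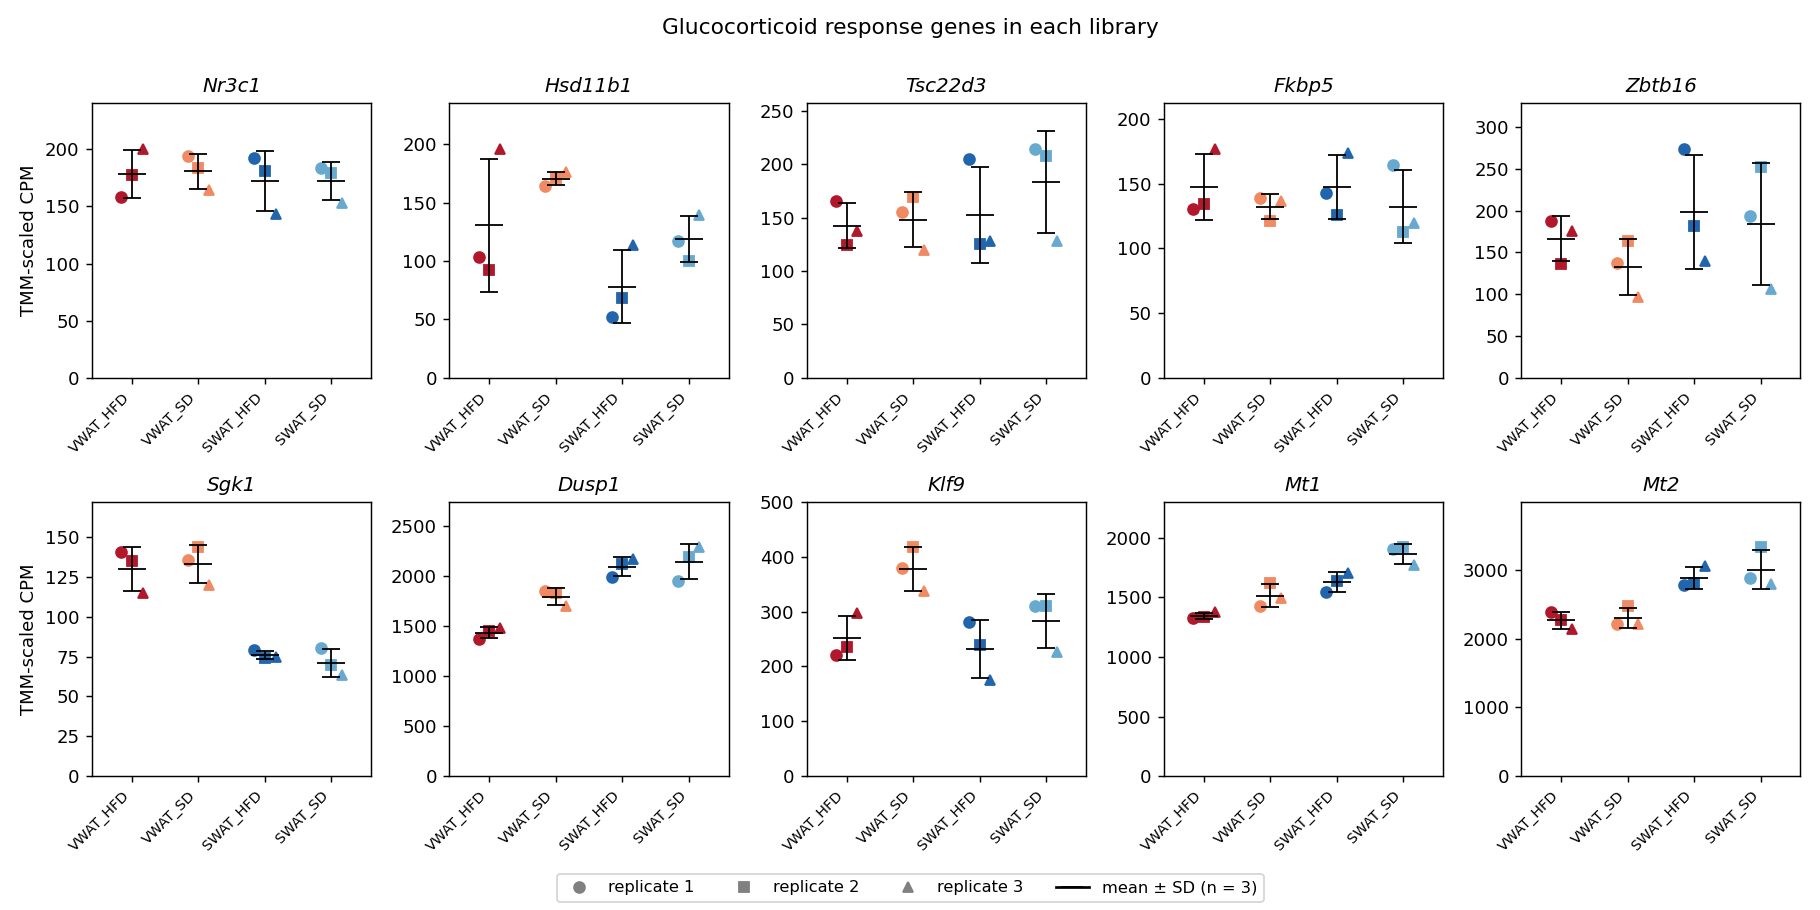
TMM-scaled CPM (linear axes from 0) of the 10 genes in each library, by group, with the mean and SD of 3 libraries and a marker shape for each replicate number. Sgk1 was at 114.7 to 143.6 CPM in VWAT libraries and at 63.16 to 80.17 CPM in SWAT libraries, while Nr3c1 overlapped between all 4 groups.

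Nr3c1, the receptor itself, was at 158.5, 177.3 and 200.5 CPM in VWAT_HFD replicates 1 to 3 and at 194.2, 184.0 and 164.3 CPM in VWAT_SD. It was at 192.7, 181.3 and 143.0 CPM in SWAT_HFD and at 183.7, 179.4 and 153.0 CPM in SWAT_SD. The group means lay between 172.0 and 180.8 CPM, and every group overlapped every other. The log2 difference between HFD and SD was -0.02 in VWAT, with a 95% interval of -0.29 to 0.26, and 0.00 in SWAT (-0.28 to 0.28). Between VWAT and SWAT it was 0.07 on SD (-0.21 to 0.35) and 0.05 on HFD (-0.22 to 0.33). Scaled by library size alone, it passed between depots on HFD (0.35, adjusted p = 0.0312).

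The sister receptor Nr3c2, the mineralocorticoid receptor, which also binds glucocorticoids, was far lower and did change. It was at 3.39, 3.07 and 6.32 CPM in VWAT_HFD and at 8.57, 9.33 and 8.29 CPM in VWAT_SD, without overlap. It fell on HFD in VWAT (log2 change -1.04, SE 0.234, adjusted p = 0.0109), and the call was lost without VWAT_HFD replicate 2 (adjusted p = 0.061). In SWAT it was at 10.5, 8.66 and 6.83 CPM on HFD and at 11.2, 11.1 and 8.8 CPM on SD and did not pass (log2 change -0.29, adjusted p = 0.609). The difference between these changes did not pass either (interaction -0.75, adjusted p = 0.664). The ratio of Nr3c1 to Nr3c2 CPM was 31.7 to 57.7 in VWAT_HFD libraries, 19.7 to 22.7 in VWAT_SD, 18.4 to 20.9 in SWAT_HFD and 16.2 to 17.4 in SWAT_SD.

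Of the 19 genes of the receptor's machinery (chaperones, Nr3c2 and coregulators), 2 fell and none rose on HFD in VWAT, where 15.6% of all genes passed. Without VWAT_HFD replicate 3, 5 fell and 1 rose, where 29.8% passed, and without SWAT_HFD replicate 2, 1 fell and none rose, where 13.7% did. Beside Nr3c2, the one that fell was Dnajb1, an Hsp70 cochaperone that heat and handling also induce, at 1691 ± 531 CPM in VWAT_HFD and 2751 ± 471 CPM in VWAT_SD (SD, n = 3; adjusted p = 0.0413). That call passed under 10 of 19 alternatives (adjusted p of 0.00211 to 0.16). It was lost without any 1 of VWAT_HFD replicates 1 and 2, VWAT_SD replicates 2 and 3, SWAT_HFD replicates 1 and 2 and SWAT_SD replicates 1 and 2, and with only the libraries compared. None of the 19 passed in SWAT. Between depots on SD, 1 was higher in VWAT and 5 were lower, where 25.7% of all genes passed. Fkbp4, the immunophilin that takes the place of Fkbp5 in the receptor complex once hormone binds, was at 51.5 to 57.8 CPM in VWAT_SD and at 83.8 to 91.2 CPM in SWAT_SD (log2 difference -0.70, adjusted p = 0.00206). The coactivator Ncoa1 was the 1 that was higher, at 127.9 ± 17.9 CPM in VWAT_SD and 85.71 ± 15.4 CPM in SWAT_SD (adjusted p = 0.0148). On HFD, 2 of the 19 were higher in VWAT and 6 lower, where 26.8% of all genes passed, and without SWAT_HFD replicate 2 none was higher and 5 were lower, where 19.9% did.

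Hsd11b1, which makes active glucocorticoid, was variable on HFD. It was at 103.1, 92.22 and 196.1 CPM in VWAT_HFD replicates 1 to 3 and at 164.5, 170.9 and 175.9 CPM in VWAT_SD. The highest of these 6 values belonged to VWAT_HFD replicate 3, and the other 2 HFD libraries were below all 3 SD libraries. In SWAT it was at 52.23, 68.63 and 113.4 CPM on HFD and at 116.7, 99.84 and 139.1 CPM on SD, where the ranges overlapped through SWAT_HFD replicate 3. The log2 change on HFD was -0.39 in VWAT (SE 0.284, adjusted p = 0.379) and -0.59 in SWAT (SE 0.287, adjusted p = 0.355), so neither passed. Without VWAT_HFD replicate 3 the change in VWAT was -0.80 and passed (adjusted p = 0.0253). That replicate number was the highest for Hsd11b1 in all 4 groups, which held for 3.27% of all genes.

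H6pd, which supplies Hsd11b1 with NADPH, was at 199, 201 and 296 CPM in VWAT_HFD and at 266, 280 and 272 CPM in VWAT_SD. It was at 166, 169 and 176 CPM in SWAT_HFD and at 187, 172 and 191 CPM in SWAT_SD. It was higher in VWAT than in SWAT on SD (log2 difference 0.58, SE 0.132, adjusted p = 0.00537) and on HFD (0.45, adjusted p = 0.0238). The call on HFD was lost without SWAT_HFD replicate 1 or 2 and with only the libraries compared. As with Hsd11b1, VWAT_HFD replicate 3 held the highest value of its depot.

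Hsd11b2, which inactivates glucocorticoid, rose on HFD in VWAT. It was at 8.34, 8.85 and 3.74 CPM in VWAT_HFD and at 1.62, 2.20 and 1.48 CPM in VWAT_SD, without overlap, a 3.98-fold rise (log2 change 1.99, SE 0.291, adjusted p = 0.00133) that passed under all 19 alternatives tried. In SWAT it was at 7.89, 5.76 and 8.93 CPM on HFD and at 5.64, 6.60 and 5.27 CPM on SD (log2 change 0.36, adjusted p = 0.593). With all 12 libraries the interaction was 1.63 (SE 0.40) and did not pass over all genes (adjusted p = 0.47). On SD it was lower in VWAT than in SWAT (log2 difference -1.74, adjusted p = 0.000579), and on HFD the depots differed by -0.11 (adjusted p = 0.827). Per kilobase of exon, its level in VWAT was 3.79 CPM on HFD and 0.957 CPM on SD, beside 69.2 and 90.4 CPM for Hsd11b1.

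Of the 6 genes of steroid supply other than Hsd11b1, 1 rose (Hsd11b2) and 2 fell on HFD in VWAT, where 15.6% of all genes passed. These 2 were Srd5a1, a steroid 5-alpha reductase, and Abcb1a, an efflux pump that carries glucocorticoids. Srd5a1 was at 8.129 ± 0.561 CPM in VWAT_HFD and 11.63 ± 2.04 CPM in VWAT_SD (adjusted p = 0.0427), and Abcb1a at 0.4087 ± 0.103 and 0.8018 ± 0.252 CPM (VWAT_HFD and VWAT_SD, adjusted p = 0.0366). Srd5a1 passed under 9 of 19 alternatives and Abcb1a under 11. None of the 6 passed in SWAT. The interaction of diet and depot passed for none of the 6 with all 12 libraries. Without VWAT_HFD replicate 3 it passed for 1 of them, as higher, where 0.942% of all genes passed. Without SWAT_HFD replicate 2 as well it was again 1, where 0.321% did. Without SWAT_HFD replicate 2 alone it was 0, where 0% did.

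**Figure D2:**
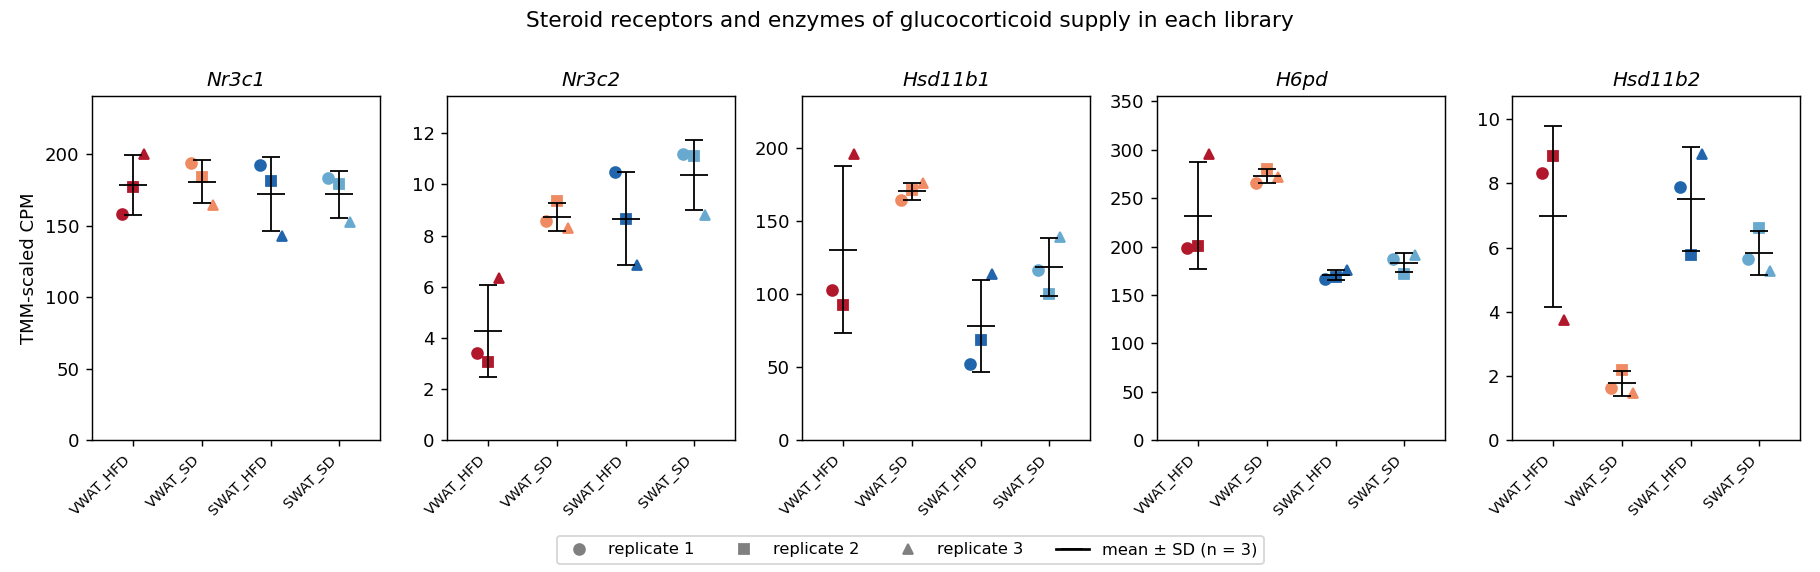
TMM-scaled CPM (linear axes from 0) of both receptors and the enzymes of local glucocorticoid supply in each library, with the mean and SD of 3 libraries. Hsd11b2 was at 3.74 to 8.85 CPM in VWAT_HFD and at 1.48 to 2.20 CPM in VWAT_SD, while the VWAT_HFD values of Hsd11b1 spread from 92.22 to 196.1 CPM.

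Of the induced genes, Klf9 and Dusp1 passed by diet, both in VWAT. Klf9 is a transcription repressor induced by glucocorticoid and thyroid hormone that restrains later receptor targets. It was at 221.7, 236.0 and 298.1 CPM in VWAT_HFD and at 380.0, 417.4 and 337.7 CPM in VWAT_SD, with every HFD library below every SD library. The fall passed (log2 change -0.59, SE 0.179, 95% interval -0.97 to -0.20, adjusted p = 0.0427). In SWAT it was at 280.9, 239.4 and 175.1 CPM on HFD and at 311.0, 311.2 and 226.2 CPM on SD, which overlapped and did not pass (log2 change -0.29, adjusted p = 0.484). The interaction of -0.30 had an interval of -0.84 to 0.25.

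Dusp1, a phosphatase that switches off MAP kinases and through which glucocorticoids dampen inflammation, was the other. It was at 1373, 1452 and 1486 CPM in VWAT_HFD and at 1852, 1837 and 1702 CPM in VWAT_SD, without overlap, a 1.25-fold fall (log2 change -0.32, SE 0.101, adjusted p = 0.0476). In SWAT it was at 1991, 2125 and 2175 CPM on HFD and at 1954, 2196 and 2290 CPM on SD (log2 change -0.03, adjusted p = 0.921). The interaction was -0.29, with an interval of -0.60 to 0.02, and did not pass in edgeR (adjusted p = 0.733). Dusp1 is also an immediate early gene that dissociation of tissue induces. The 23 immediate early genes summed to 26000 to 39900 CPM in VWAT_HFD and 38700 to 42700 CPM in VWAT_SD, and to 38800 to 39700 CPM in SWAT_HFD and 45600 to 48600 CPM in SWAT_SD; their part in the Dusp1 result was not tested. In VWAT, 6 of the 23 rose and 2 fell, beside 8.64% and 6.98% of all genes, with a median log2 change of -0.18 and 13 of 23 below 0. When VWAT_HFD replicate 3 was left out, 6 rose and 8 fell, where 29.8% of all genes passed. The 4 with the lowest p were Egr3, Nr4a2, Nr4a3 and Ier5, which all rose. The 2 that fell, named after their values were seen, were Fos, at 2240, 2720 and 3950 CPM in VWAT_HFD and 4630, 4640 and 4520 CPM in VWAT_SD (adjusted p = 0.0244), and Egr1, at 3570, 4180 and 6560 CPM in VWAT_HFD and 7330, 8020 and 6760 CPM in VWAT_SD (adjusted p = 0.0415).

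Both calls were narrow. Klf9 passed under 10 of 19 alternatives, with adjusted p of 0.0117 to 0.165, and was lost without any 1 of VWAT_HFD replicates 1 and 2, VWAT_SD replicates 1 to 3, SWAT_HFD replicate 2 and SWAT_SD replicates 1 and 2. Dusp1 passed under 8 of 19 (0.00151 to 0.137) and was lost without any 1 of the same libraries or SWAT_HFD replicate 1.

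Mt1 and Mt2, metallothioneins that bind zinc and are induced by glucocorticoids and metals, did not pass by diet, although the libraries of Mt1 did not overlap in either depot. Mt1 was at 1326, 1332 and 1374 CPM in VWAT_HFD and at 1432, 1621 and 1494 CPM in VWAT_SD (log2 change -0.17, adjusted p = 0.236). It was at 1546, 1634 and 1709 CPM in SWAT_HFD and at 1903, 1921 and 1770 CPM in SWAT_SD (log2 change -0.19, adjusted p = 0.37). Counting such separations, 3 of the 10 genes were lower in every HFD library in VWAT, beside 17.5% of all genes, and 1 in SWAT, beside 10.2%. None was higher in every HFD library, beside 15.5% and 11.6%. Mt2, next to Mt1 on the chromosome, overlapped in both depots and its changes were -0.02 and -0.06. The ratio of Mt2 to Mt1 CPM was 1.56 to 1.80 in VWAT_HFD and 1.48 to 1.54 in VWAT_SD, and 1.72 to 1.80 in SWAT_HFD and 1.51 to 1.73 in SWAT_SD.

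The genes used most as readouts of receptor activity did not pass by diet in either depot. Fkbp5, the cochaperone that feeds back on the receptor, was at 130.7, 134.3 and 176.9 CPM in VWAT_HFD and at 138.9, 121.0 and 136.6 CPM in VWAT_SD, a log2 change of 0.16 with an interval of -0.20 to 0.51. In SWAT it was at 142.5, 125.7 and 173.9 CPM on HFD and at 164.8, 112.8 and 119.4 CPM on SD (0.15, interval -0.20 to 0.51). In both HFD groups replicate 3 was the highest.

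Tsc22d3, which encodes the glucocorticoid-induced leucine zipper protein GILZ, was at 165.9, 124.3 and 137.4 CPM in VWAT_HFD and at 155.5, 169.7 and 119.6 CPM in VWAT_SD (log2 change -0.06, interval -0.54 to 0.42). It was at 204.8, 125.6 and 127.8 CPM in SWAT_HFD and at 214.5, 207.7 and 128.5 CPM in SWAT_SD (-0.27, interval -0.75 to 0.21). SWAT_HFD replicate 1 and SWAT_SD replicates 1 and 2 were the high libraries, and the other 3 SWAT libraries lay between 125.6 and 128.5 CPM.

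Zbtb16, the transcription factor PLZF, was the most variable of the induced genes in SWAT. It was at 187.0, 136.3 and 175.8 CPM in VWAT_HFD and at 136.8, 163.2 and 97.1 CPM in VWAT_SD (log2 change 0.33, interval -0.31 to 0.97). It was at 273.9, 181.4 and 140.1 CPM in SWAT_HFD and at 193.7, 252.1 and 106.1 CPM in SWAT_SD (0.10, interval -0.54 to 0.75), with a coefficient of variation of 40% in SWAT_SD.

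Sgk1, a kinase that raises sodium transport and cell survival, was at 140.6, 135.1 and 114.7 CPM in VWAT_HFD and at 135.7, 143.6 and 119.9 CPM in VWAT_SD. Its log2 change on HFD was -0.03 there (interval -0.27 to 0.20) and 0.10 in SWAT (interval -0.14 to 0.34). In VWAT the interval of Tsc22d3 includes a fall as large as that of Dusp1, whereas those of Fkbp5 and Sgk1 end at -0.20 and -0.27. The interaction of diet and depot passed for none of the 10 genes, and for 0% of all genes, in edgeR. Dusp1 had the lowest unadjusted p of the 10, 0.0646, and DESeq2 called 35 genes and none of the 10. The intervals were wide, from -0.66 to 1.08 for Hsd11b1 and from -0.69 to 1.13 for Zbtb16. Without VWAT_HFD replicate 3, 135 genes passed this interaction and none of the 10.

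**Figure D3:**
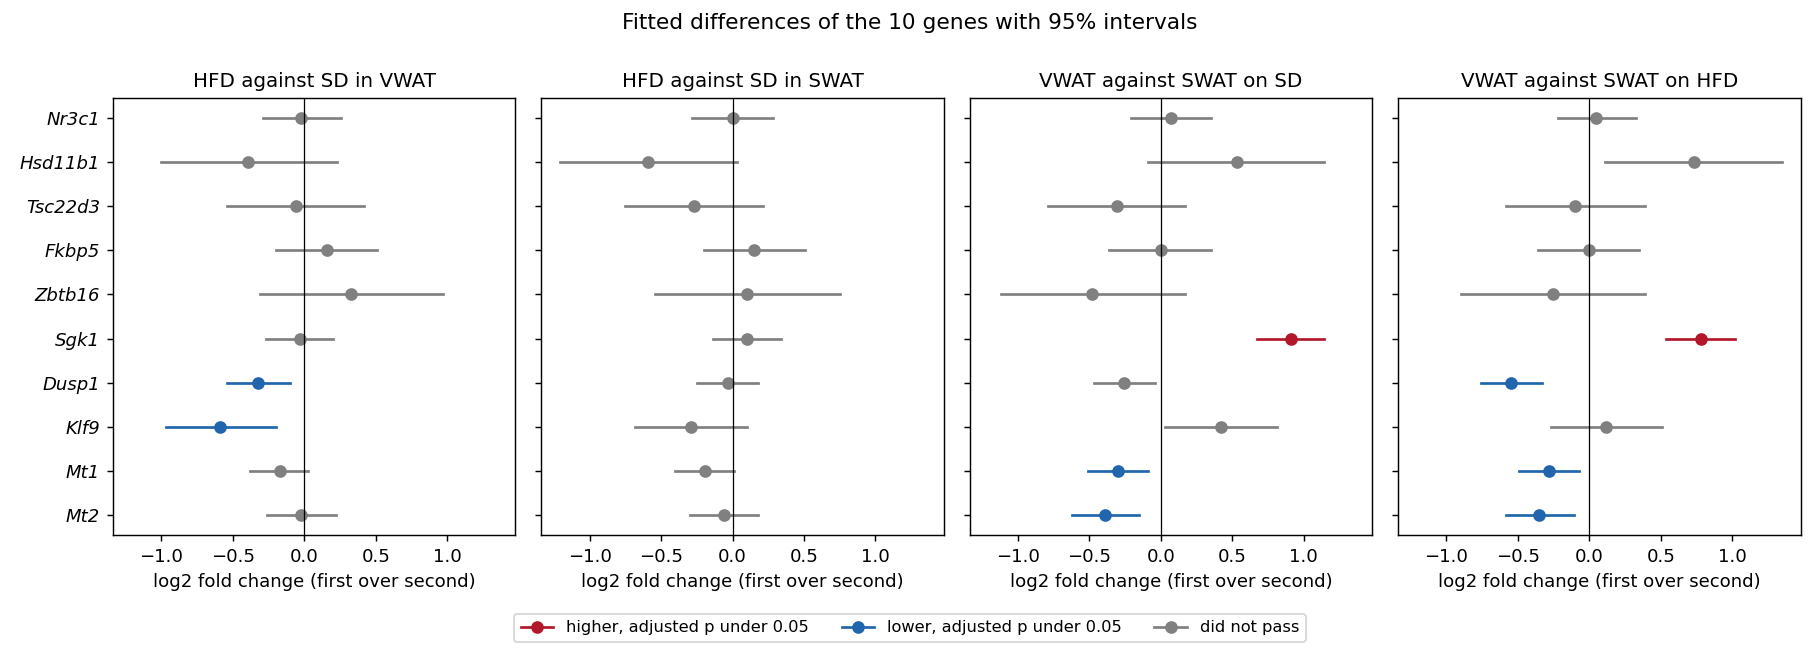
Fitted log2 fold changes of the 10 genes with 95% intervals in the diet comparisons (HFD over SD) and the depot comparisons (VWAT over SWAT). Colours mark an adjusted p under 0.05; Klf9 and Dusp1 were lower on HFD in VWAT, and Sgk1 was higher and Mt1 and Mt2 lower in VWAT on both diets, of which Mt1 on HFD changed sign when scaled by library size alone (0.006).

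Further genes that glucocorticoids induce were taken from a list. Of 38 tested, 12 fell and 5 rose on HFD in VWAT, where 6.98% of all genes fell and 8.64% rose. Their median log2 change was -0.32, beside -0.017 over all genes. Cebpd, an early factor of adipocyte differentiation, was at 701, 523 and 662 CPM in VWAT_HFD and at 1170, 1290 and 1180 CPM in VWAT_SD (log2 change -0.95, SE 0.131, adjusted p = 0.000958), and passed under all 19 alternatives. Pdk4, a kinase that spares glucose, was at 15.5, 14.8 and 19.9 CPM in VWAT_HFD and at 43.7, 52.1 and 43.8 CPM in VWAT_SD (-1.48, adjusted p = 0.000956). Gadd45g, a stress-induced gene, was at 253.5 ± 15.2 CPM in VWAT_HFD and 388.2 ± 38.0 CPM in VWAT_SD (SD, n = 3; adjusted p = 0.00275).

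Those that rose included Thbs1, Rasd1, Rgs2 and Gadd45b, of which all but Thbs1 were named after their values were seen, as was Per1. Thbs1, a matrix glycoprotein, was at 1960, 2630 and 2290 CPM in VWAT_HFD and at 1110, 1120 and 755 CPM in VWAT_SD (log2 change 1.21, adjusted p = 0.0027). Per1, a clock gene with a well-known response element, was at 104.7 ± 12.7 CPM in VWAT_HFD and 117.0 ± 11.5 CPM in VWAT_SD and did not pass (adjusted p = 0.522). Without VWAT_HFD replicate 3 the counts were 16 lower and 5 higher, where 29.8% of all genes passed.

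In SWAT, 1 of the 38 passed, where 1.11% of all genes did. Cebpd was at 686, 601 and 566 CPM in SWAT_HFD and at 900, 966 and 1120 CPM in SWAT_SD, without overlap (log2 change -0.69, SE 0.131, adjusted p = 0.0306). That call passed under 10 of 19 alternatives. It was lost with limma voom and without any 1 of the 6 SWAT libraries or VWAT_SD replicates 1 and 3.

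A further list held genes that glucocorticoids repress, which are mostly inflammatory. Of 18 tested, 12 rose and 1 fell on HFD in VWAT, where 8.64% of all genes rose and 6.98% fell. Their median log2 change was 0.95, beside -0.017 over all genes. Without VWAT_HFD replicate 3, 13 rose and 1 fell of 19, where 29.8% of all genes passed. The chemokine Ccl2 was at 2030, 2230 and 1140 CPM in VWAT_HFD and at 663, 680 and 638 CPM in VWAT_SD, a 2.73-fold rise (log2 change 1.45, SE 0.24, adjusted p = 0.00225). The adhesion molecule Sele rose 5.95-fold, to 75.4, 129 and 63.0 CPM in VWAT_HFD, against 12.8, 20.2 and 12.0 CPM in VWAT_SD (adjusted p = 0.00162). The chemokine Ccl7 rose 3.22-fold and the cytokine Lif 2.03-fold (adjusted p = 0.00221 and 0.00133). Each of these 4 passed under all 19 alternatives. The gene that fell was the matrix protease Mmp3, named after its values were seen (log2 change -0.70, adjusted p = 0.0194).

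Of the 14 leukocyte markers tested, 1 fell in VWAT and none rose, where 6.98% of all genes fell and 8.64% rose. The part of leukocytes in the rise of the repressed genes was not tested. The summed level of the 12 mitosis genes was 119 to 464 CPM in VWAT_HFD and 27.2 to 41.4 CPM in VWAT_SD, without overlap, and their part in these results was not tested. In SWAT, 2 of the 18 repressed genes rose, where 1.11% of all genes passed, the cytokine Csf2 (6.237 ± 2.58 CPM in SWAT_HFD and 1.323 ± 0.301 CPM in SWAT_SD, adjusted p = 0.0469) and the adhesion molecule Vcam1 (286.4 ± 26.1 and 197.9 ± 7.01 CPM, HFD and SD, adjusted p = 0.0402). Each was lost without any 1 of the 6 SWAT libraries, SWAT_HFD replicate 2 with its high leukocyte markers included, and they passed under 8 and 7 of 19 alternatives (Csf2 and Vcam1).

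**Figure D4:**
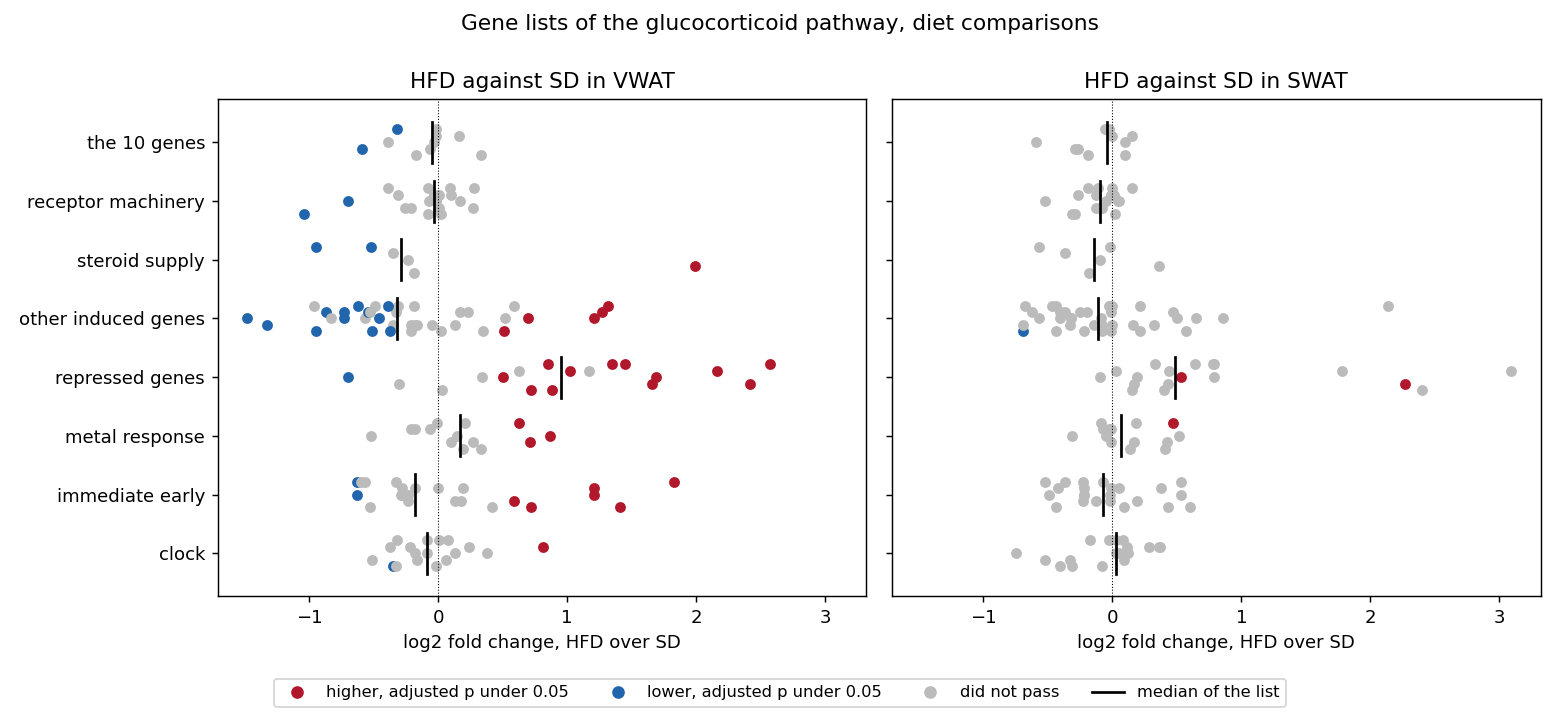
Log2 fold change (HFD over SD) of each gene in lists of the glucocorticoid pathway, in VWAT and in SWAT. Points are genes, coloured where the adjusted p is under 0.05, and bars are list medians, which in VWAT were -0.32 for the other induced genes and 0.95 for the repressed genes.

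The metallothioneins were set beside other genes of the zinc and oxidative response. Of 14 tested, 3 rose on HFD in VWAT and none fell, where 15.6% of all genes passed (8.64% higher, 6.98% lower). They were the zinc exporter Slc30a1 (38.17 ± 5.68 CPM in VWAT_HFD and 23.41 ± 1.88 CPM in VWAT_SD, adjusted p = 0.00693), the zinc importer Slc39a14 and the antioxidant enzyme Srxn1. In SWAT, 1 of the 14 rose, where 1.11% of all genes passed. This was Slc39a14, at 83.5, 84.1 and 86.5 CPM in SWAT_HFD and 66.5, 64.1 and 52.5 CPM in SWAT_SD (adjusted p = 0.0437), which passed under 7 of 19 alternatives and was lost without any 1 of the 6 SWAT libraries. Of 9 other MAP kinase phosphatases, 1 rose in VWAT, Dusp5, and none fell. Of 30 paralogs of the induced genes, 7 rose and 1 fell in VWAT, beside the same 8.64% and 6.98% of all genes. The one that fell was Klf11, a relative of Klf9, at 28.76 ± 6.66 CPM in VWAT_HFD and 45.24 ± 3.74 CPM in VWAT_SD (adjusted p = 0.00748). Of 18 clock genes, 1 rose (Bhlhe40) and 1 fell (Nfil3), the second under 13 of 19 alternatives, where 15.6% of all genes passed.

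Between depots, 3 of the 10 genes passed on SD and 4 on HFD, where 25.7% and 26.8% of all genes did. On HFD, 1 was higher and 1 lower without SWAT_HFD replicate 2, where 19.9% of all genes passed. Without VWAT_HFD replicate 3, 1 was higher and 2 were lower there, where 30.5% did. The promoters of the 4 genes that passed as reported are shown here, to set their depot differences beside the elements that a search of the letters found. They are the 250 bases before the start of transcription given by RefSeq on GRCm38.p6, 5′ to 3′ on the gene's strand. Windows of 8 of the 10 genes were searched: none was given for Zbtb16, and none was used for Nr3c1. Of all 32851 windows of that length, 0.387% held the full glucocorticoid response element (GNACA and TGTNC with any 3 bases between them) on either strand, 1.55% the cyclic AMP element TGACGTCA and 44.4% TGCNCNC. The last is a loose pattern with any base at each N, searched for as the metal response element, so a match need not be that element. Capitals mark matches to the letters searched for as the element named after each gene. The 5 named for Mt2 are thus matches of TGCNCNC, and each need not be a metal response element.
Sgk1 promoter, chr10:21993640-21993889, plus strand, glucocorticoid element starting 188 bases before the start (found in 1 of its 6 windows): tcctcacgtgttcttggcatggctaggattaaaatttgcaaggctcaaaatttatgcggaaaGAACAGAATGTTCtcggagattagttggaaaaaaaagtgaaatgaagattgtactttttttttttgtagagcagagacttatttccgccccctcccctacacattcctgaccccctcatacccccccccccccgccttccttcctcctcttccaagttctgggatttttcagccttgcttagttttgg
Mt1 promoter, chr8:94178839-94179088, plus strand, glucocorticoid element starting 94 bases before the start: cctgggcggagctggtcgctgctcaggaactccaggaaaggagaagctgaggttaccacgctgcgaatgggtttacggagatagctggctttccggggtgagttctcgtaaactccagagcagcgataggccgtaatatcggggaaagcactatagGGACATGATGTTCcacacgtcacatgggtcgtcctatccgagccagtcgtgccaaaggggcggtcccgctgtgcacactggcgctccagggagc
Mt2 promoter, chr8:94172368-94172617, plus strand, 5 metal response elements: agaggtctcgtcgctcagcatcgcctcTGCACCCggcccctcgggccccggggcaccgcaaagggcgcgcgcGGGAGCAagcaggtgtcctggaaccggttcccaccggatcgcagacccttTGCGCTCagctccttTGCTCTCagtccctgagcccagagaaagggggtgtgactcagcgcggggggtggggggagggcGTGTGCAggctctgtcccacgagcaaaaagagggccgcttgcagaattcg
Dusp1 promoter, chr17:26508473-26508722, minus strand, cyclic AMP element starting 143 bases before the start: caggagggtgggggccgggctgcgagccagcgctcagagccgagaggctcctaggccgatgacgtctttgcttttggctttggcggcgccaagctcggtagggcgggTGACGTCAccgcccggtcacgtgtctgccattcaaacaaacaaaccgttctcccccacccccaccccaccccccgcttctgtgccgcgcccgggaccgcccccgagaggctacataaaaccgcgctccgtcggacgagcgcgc

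A match of letters is a description and not evidence of binding. Sgk1 (in 1 of its 6 windows) and Mt1 held the full element, and Sgk1 was higher and Mt1 lower in VWAT. The window of Klf9 held none of the motifs searched, which included TGTTCT (in 16.1% of all windows). Whether any match bears on the differences in level was not tested. The window of Mt1 also held 1 match of TGCNCNC, and those of Mt2 and Dusp1 held neither the full glucocorticoid element nor TGTTCT. Only the 250 bases before an annotated start were searched, so elements farther away or past that start were not counted. Which starts these cells use was not tested, so the numbers of matches do not compare whole promoters.

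Sgk1 had the clearest depot difference. On SD it was at 135.7, 143.6 and 119.9 CPM in VWAT and at 80.17, 69.44 and 63.16 CPM in SWAT, which is 1.87-fold higher in VWAT (log2 difference 0.91, SE 0.11, adjusted p = 3.51e-05). On HFD it was at 140.6, 135.1 and 114.7 CPM in VWAT and at 79.18, 74.05 and 74.70 CPM in SWAT, 1.71-fold higher (0.78, SE 0.11, adjusted p = 0.000129). Every VWAT library was above every SWAT library on each diet, and both calls held under every alternative tried, 20 on SD and 19 on HFD.

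The metallothioneins were lower in VWAT. On SD, Mt1 was at 1432, 1621 and 1494 CPM in VWAT and at 1903, 1921 and 1770 CPM in SWAT (log2 difference -0.30, SE 0.0961, adjusted p = 0.0356). On HFD it was at 1326, 1332 and 1374 CPM in VWAT and at 1546, 1634 and 1709 CPM in SWAT (-0.28, SE 0.0961, adjusted p = 0.0473). Mt2 was at 2209, 2471 and 2217 CPM in VWAT_SD and at 2878, 3328 and 2801 CPM in SWAT_SD (-0.39, SE 0.11, adjusted p = 0.0191). On HFD it was at 2385, 2271 and 2142 CPM in VWAT and at 2776, 2809 and 3061 CPM in SWAT (-0.35, SE 0.11, adjusted p = 0.0317).

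All 4 of these separations were complete, but the sizes were small and the calls narrow. When counts were scaled by library size alone, which moved the median of all genes by 0.236 on SD and 0.301 on HFD toward VWAT, Mt1 on HFD was at 0.006 and none of the 4 passed. On SD, Mt1 and Mt2 were also lost without VWAT_SD replicate 1 or 3 or SWAT_SD replicate 2, and Mt1 without SWAT_SD replicate 1. On HFD, Mt1 passed under 6 of 19 alternatives and Mt2 under 12. Both were lost there without SWAT_HFD replicate 2, and Mt2 also without VWAT_HFD replicate 3.

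Dusp1 was lower in VWAT on HFD, at 1373, 1452 and 1486 CPM against 1991, 2125 and 2175 CPM in SWAT (log2 difference -0.55, SE 0.101, adjusted p = 0.00118), and this was lost only with library size alone among 19 alternatives (adjusted p = 0.0713). On SD its libraries did not overlap either, at 1852, 1837 and 1702 CPM in VWAT and at 1954, 2196 and 2290 CPM in SWAT, and the difference of -0.26 did not pass (adjusted p = 0.0833). The order of its group means was SWAT_SD, SWAT_HFD, VWAT_SD and VWAT_HFD, and the first pair overlapped. Of the 14 metal and oxidative stress genes tested, 5 were lower and 1 higher in VWAT on SD, where 25.7% of all genes passed, and the list's median was -0.03. Its heme oxygenase Hmox1 was at 337.3 ± 36.4 CPM in VWAT_SD and 587.9 ± 22.2 CPM in SWAT_SD (SD, n = 3; adjusted p = 0.000173).

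The other induced genes differed between depots in both directions. Of 38 tested, 12 were higher and 9 lower in VWAT on SD, and 11 were higher and 10 lower on HFD, where 25.7% of all genes passed on SD and 26.8% on HFD. Their medians were 0.09 on SD and -0.03 on HFD. Il1r2, a decoy receptor for interleukin-1, was at 2.40, 3.79 and 2.70 CPM in VWAT_SD and at 292, 306 and 422 CPM in SWAT_SD, 115-fold lower in VWAT (log2 difference -6.85, adjusted p = 6.38e-09). Thbs1 was at 994.8 ± 208 CPM in VWAT_SD and 221 ± 6.65 CPM in SWAT_SD (SD, n = 3; adjusted p = 4.79e-06). Of the 18 repressed genes tested, 3 were higher and 3 lower in VWAT on SD, and 7 were higher and 1 lower on HFD, beside the same shares of all genes. Mmp3 was lower in VWAT on both, at 13.2, 8.97 and 9.47 CPM in VWAT_SD and at 426, 467 and 614 CPM in SWAT_SD (log2 difference -5.57, adjusted p = 7.54e-10).

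Hsd11b1 and Klf9 were above SWAT in every VWAT library on SD without passing. Hsd11b1 was at 164.5, 170.9 and 175.9 CPM in VWAT_SD and at 116.7, 99.84 and 139.1 CPM in SWAT_SD (log2 difference 0.53, SE 0.285, adjusted p = 0.211), and Klf9 at 380.0, 417.4 and 337.7 CPM in VWAT_SD and at 311.0, 311.2 and 226.2 CPM in SWAT_SD (0.42, SE 0.179, adjusted p = 0.108). On HFD, Hsd11b1 overlapped between depots and differed by 0.73 (SE 0.287, adjusted p = 0.0782), passing under 4 of 19 alternatives, and Klf9 by 0.12 (adjusted p = 0.68). Tsc22d3, Zbtb16 and Fkbp5 overlapped between depots on both diets, with differences of -0.31, -0.48 and 0.00 on SD and of -0.10, -0.25 and 0.00 on HFD, none of which passed. In all, 3 genes were higher in every VWAT library on SD and 3 were lower, beside 23.6% and 21.4% of all genes. On HFD, 1 was higher and 3 were lower, beside 17.7% and 18.2%.

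Same-numbered SD libraries of the depots deviated together, with correlations of 0.177, 0.178 and 0.398, so that the numbers were taken to pair them. In a fit of the 6 SD libraries with the replicate number as a block, 8 of the 10 genes passed, 3 higher and 5 lower, where 47.3% of all genes did (23.7% higher, 23.6% lower). Sgk1 (log2 difference 0.91), Hsd11b1 (0.54, SE 0.0788, adjusted p = 0.000697) and Klf9 (0.43, SE 0.0632, adjusted p = 0.000265) were higher in VWAT_SD, in all 3 pairs. Zbtb16 (-0.42, adjusted p = 0.00839), Mt2 (-0.38), Mt1 (-0.30), Tsc22d3 (-0.29, adjusted p = 0.00613) and Dusp1 (-0.25, adjusted p = 0.0172) were lower in VWAT_SD, also in all 3 pairs. For Hsd11b1 the pair differences were 0.50, 0.78 and 0.34 on the log2 scale. Nr3c1 (0.07, adjusted p = 0.243) and Fkbp5 (0.01, adjusted p = 0.908) did not pass. This fit has few residual degrees of freedom. It was chosen after the data were seen, and its pairing was inferred from the same data.

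**Figure D5:**
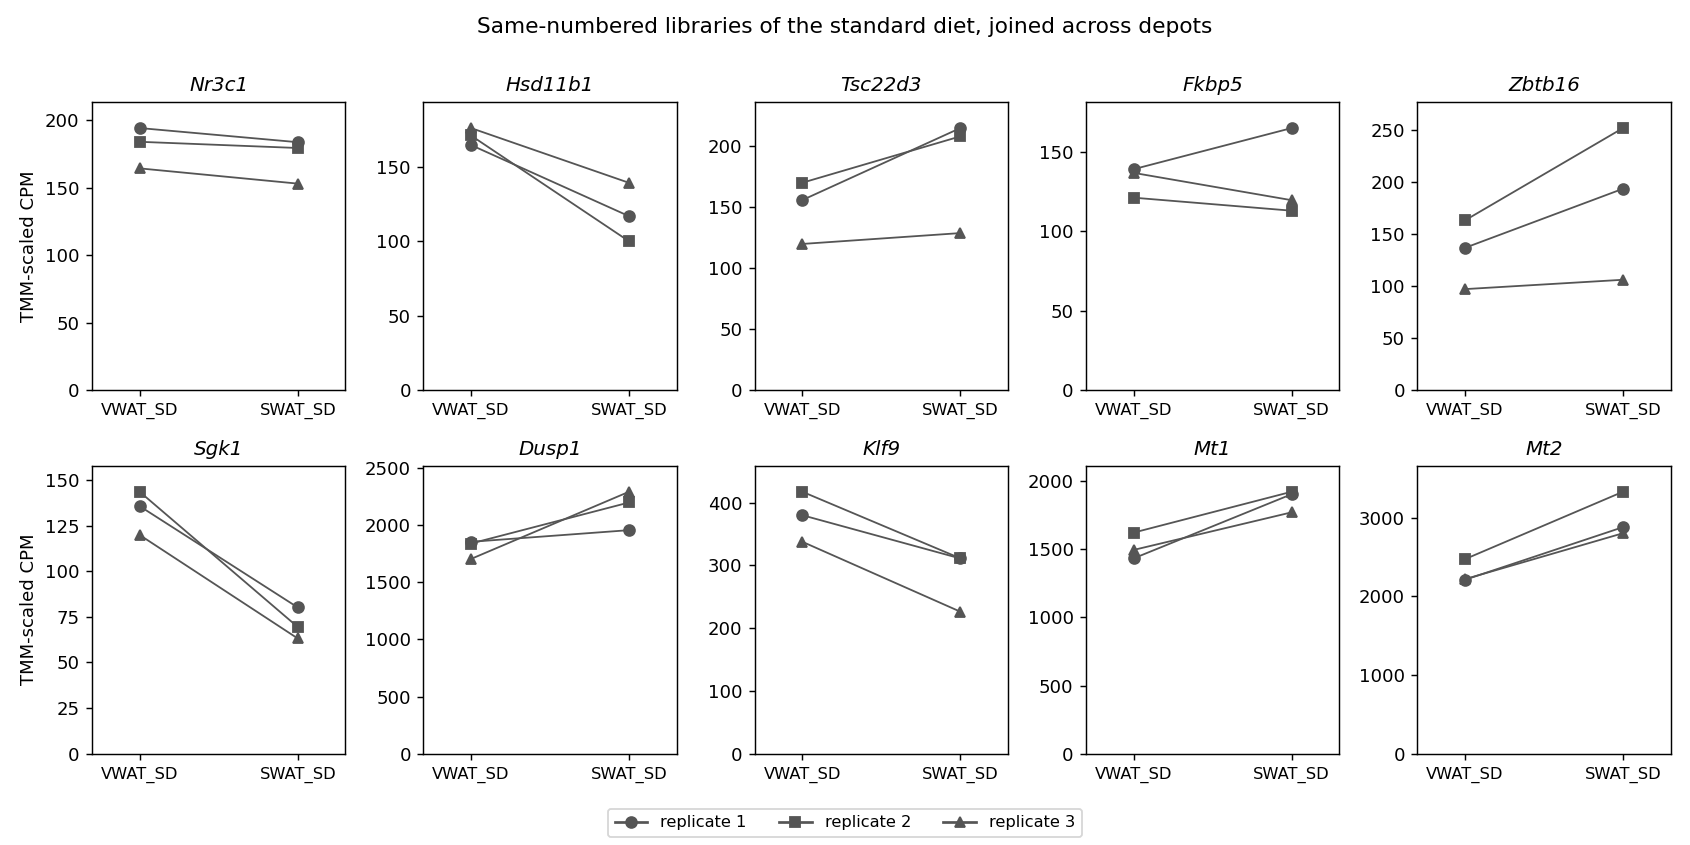
TMM-scaled CPM (linear axes from 0) of the 10 genes in the 6 standard diet libraries, with a line joining the VWAT_SD and SWAT_SD libraries of each replicate number. For Hsd11b1, Sgk1 and Klf9 every line is higher at VWAT_SD, and for Tsc22d3, Zbtb16, Dusp1, Mt1 and Mt2 every line is lower there.

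Replicate 3 was the lowest in both SD groups for 5 of the 10 genes, Nr3c1, Tsc22d3, Zbtb16, Sgk1 and Klf9, beside 26.3% of all genes. For Zbtb16 it was at 97.1 CPM in VWAT_SD and 106.1 CPM in SWAT_SD, against 136.8 CPM or more in the other SD libraries.

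The induced genes did not move as a block across the 12 libraries, which share depot and diet structure. By Pearson's r of log2 CPM, as a description, Mt1 and Mt2 went together (r = 0.86), as did Dusp1 with Mt1 (0.85) and Tsc22d3 with Zbtb16 (0.79), whereas Sgk1 went against Dusp1 (-0.83) and Mt2 (-0.85). Fkbp5 had r between -0.21 and 0.18 with each of the other 9. Among 9368 genes with a mean of at least 5 CPM, the most alike in pattern were Abl1 (r = 0.943), Ttc28 and Gatsl2 for Nr3c1, Dph5 (0.959), Narfl and Ercc3 for Hsd11b1, and Dkc1 (0.835), Fgfr1op2 and Csnk2a2 for Fkbp5. They were Airn (0.943), Gdap10 and Bcl2l11 for Tsc22d3, Pofut1 (0.915) and Rora for Zbtb16, and Fbln5 (0.974), Atp1b2 and Fam83a for Sgk1. They were Vrk3 (0.953), Cpne8 and Spock2 for Dusp1, Ddit4 (0.947), Mtap1b and Cdc42bpg for Klf9, Tnfsf9 (0.959), Zranb1 and Hspb8 for Mt1, and H2-K2 (0.959), Nqo2 and Atl2 for Mt2. Ddit4, an inhibitor of mTORC1 that glucocorticoids induce, was at 17.0, 17.2 and 17.1 CPM in VWAT_HFD and at 30.4, 36.1 and 27.0 CPM in VWAT_SD. Airn overlaps other genes on the opposite strand and H2-K2 shares sequence with other H2 genes, so both are uncertain as counted. The r of Fkbp5 with its most alike gene was the lowest of the 10.

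Per kilobase of exon, the levels of the 10 genes spanned a wide range in every group. In VWAT, Mt2 was at 3854 CPM per kilobase on HFD and 3910 on SD, Mt1 at 1079 and 1217, and Dusp1 at 606 and 757 (HFD and SD). The other 7 lay between 20.2 and 90.4 CPM per kilobase in VWAT, with Hsd11b1 the highest and Fkbp5 the lowest on each diet. Exon lengths were those of GENCODE M21, not of the annotation counted with, so these levels are approximate. Each length joins all exons annotated for a gene, 1246 bp for Mt1 and 588 bp for Mt2, and a transcript can be shorter. The gap between Mt2 and Mt1 per kilobase therefore rests partly on these lengths.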

How the data were processed

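Strand-marked (dUTP) libraries of poly(A) RNA were sequenced as single reads of 75 bp, per the labels' protocols. TopHat and HTSeq were used with the build mm9, per the submitters' processing notes. Versions and the strand setting are not given in the sources used here, so overlapping and antisense genes are uncertain, as are paralogs that share reads. The authors deposited 1 table of raw read counts per gene. Rows that name no gene were left out. Of all counts, with those rows included, they held 3.53 to 5.57% (no feature), 1.71 to 1.95% (ambiguous) and 15.0 to 20.8% (not unique).

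Genes were filtered with filterByExpr by group and tested with edgeR 4.0.16 (R 4.3.3; robust quasi-likelihood F test, TMM) in 1 fit of 4 groups over 12 libraries, with 5 contrasts and Benjamini-Hochberg adjustment over 14266 genes (132 removed). No test was run on a list; lists are described by counts and medians. The 10 genes, the companion lists and the tests were chosen with earlier results of these data known. All 10 genes are named; from each list, up to 4 passing genes of lowest p may be, with others marked as named after their values were seen, and for each gene the 3 most alike by Pearson's r of log2 CPM with a prior count of 2; some genes that this rule names are not reported here. The test was checked on counts simulated without an outlying library, depot differences or pairing. That check cannot tell how such features affect the calls.

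Replicate numbers were taken to pair the SD libraries of VWAT and SWAT, from correlated deviations from group means in all 3 pairs (0.177, 0.178 and 0.398). The labels do not say so. Between SWAT_HFD and SWAT_SD, 2 such correlations were 0.123 and 0.125 (replicates 2 and 3), so that the pairing is an inference. For the other groups at least 1 of 3 pairs was at or under 0.1. No libraries were identical. Alternatives were DESeq2 1.42.0 size factors or library size alone, no filter, DESeq2's Wald test, limma 3.58.1 voom, the compared libraries alone, the replicate block and each library left out. Promoters are RefSeq's on GRCm38.p6, and windows were searched on both strands.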

Additional observations from a re-analysis of the deposited data

How the results depend on the processing

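Sgk1 between depots, Hsd11b2, Cebpd, Ccl2, Sele, Ccl7 and Lif by diet in VWAT kept their direction and side of the threshold under every alternative tried. For all values that follow, the cause of the change was not tested. Of the 10 genes, the number that passed on HFD against SD in VWAT was 1 with DESeq2 size factors (Klf9), 1 with the replicate block (Dusp1) and 1 with only the libraries compared (Klf9). Between VWAT and SWAT it was 5 on SD and 2 on HFD with only the libraries compared, where 4243 and 2784 of all genes passed (SD and HFD), and 8 on SD in the 6 SD libraries with the replicate block, chosen after seeing the data.

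Over all genes, the diet comparison in SWAT gave 263 calls with library size alone, 536 with DESeq2's Wald test, 12 with limma voom, 247 with the replicate block and 352 with only the libraries compared, against 159 as reported. In VWAT it gave 1246 with only the libraries compared, against 2228. The interaction gave 35 with DESeq2's Wald test and 1 with the replicate block, against 0. Between depots, 6662 genes passed in the 6 SD libraries with the replicate block, against 3669, and on HFD 6954 with library size alone (5830 higher and 1124 lower), against 3830 (1918 and 1912).

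Signs that changed with library size alone, on the log2 scale, were those of Nr3c1 (-0.183), Fkbp5 (-0.014), Zbtb16 (-0.079) and Sgk1 (-0.079) by diet in SWAT, Nr3c1 in the interaction (0.058), Fkbp5 between depots on SD (0.215) and Tsc22d3 (0.194), Fkbp5 (0.280), Zbtb16 (0.047) and Mt1 (0.006) between depots on HFD. With limma voom they were those of Fkbp5 in the interaction (-0.014) and between depots on SD (0.021) and HFD (0.007). With the replicate block they were Nr3c1 by diet in SWAT (-0.002) and Fkbp5 between depots on HFD (0.003), with only the libraries compared the same values were -0.003 and 0.002, and in the 6 SD libraries with the block Fkbp5 was at 0.014. None of these passed as reported but Mt1.

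Leaving out each library in turn, the number of the 10 genes that passed was 0 to 3 for diet in VWAT, 0 for diet in SWAT and for the interaction, 1 to 4 between depots on SD and 2 to 4 on HFD. Over all genes it was 757 to 4266 for diet in VWAT, where the highest was without VWAT_HFD replicate 3 and the lowest without VWAT_HFD replicate 2. It was 0 to 615 for diet in SWAT, where the lowest was without SWAT_HFD replicate 2, 0 to 135 for the interaction, and 2865 to 4411 and 2852 to 4366 between depots on SD and HFD. Differences near 0 changed sign: by diet in VWAT, Nr3c1 (-0.108 to 0.063), Tsc22d3 (-0.190 to 0.051), Sgk1 (-0.101 to 0.051) and Mt2 (-0.059 to 0.034), and by diet in SWAT, Nr3c1 (-0.089 to 0.119), Zbtb16 (-0.197 to 0.400), Dusp1 (-0.104 to 0.015) and Mt2 (-0.107 to 0.021). In the interaction they were Nr3c1 (-0.136 to 0.086), Hsd11b1 (-0.212 to 0.581), Fkbp5 (-0.167 to 0.140), Zbtb16 (-0.070 to 0.543), Mt1 (-0.018 to 0.072) and Mt2 (-0.042 to 0.093). Between depots they were Nr3c1 (-0.006 to 0.136) and Fkbp5 (-0.106 to 0.166) on SD, and Nr3c1 (-0.065 to 0.141), Tsc22d3 (-0.219 to 0.172), Fkbp5 (-0.154 to 0.137), Zbtb16 (-0.451 to 0.051) and Klf9 (-0.046 to 0.281) on HFD.

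Apart from the SD libraries, same-numbered libraries were not taken as pairs: 3 of the other 15 had a correlation over 0.1. Over all groups, 9 of 12 libraries were closest to one of their own number. With the replicate block over the 12 libraries, Klf9 was lost by diet in VWAT, Mt1 was lost between depots on HFD, and Hsd11b1 passed there.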
